A study of Zea mays with 16 samples.

Results

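Heat shock protein genes were followed in maize roots through waterlogging and drainage. They were taken as every probe set whose gene symbol or RefSeq synonym was hsp followed by a number, which gave 12 of 17734 probe sets on the array and 9 genes. The small heat shock protein class held 6 probe sets of 5 genes (hsp18a, hsp18c, hsp18f, hsp22 and hsp26), the hsp70 class 4 probe sets of 2 genes (hsp70-4 and hsp70-5), and hsp101 and HSP60-1 had 1 probe set each. Only 1453 probe sets carried a gene name in the annotation used, so other heat shock protein genes may sit among the 16281 that did not.

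Heat shock proteins are chaperones, which hold, refold or rescue proteins that have lost their shape. Small heat shock proteins bind unfolding proteins without using ATP and keep them from clumping. Hsp70 proteins refold them with ATP, and hsp101, a ClpB-type disaggregase, pulls proteins back out of aggregates and is required for acquired heat tolerance in maize. In plants many small heat shock protein genes and hsp101 are nearly silent until heat or another stress induces them, while several hsp70 genes and the mitochondrial chaperonin HSP60 are expressed all the time.

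The roots came from 2 inbred lines grown in pots, HKI1105, labelled tolerant of waterlogging, and V-372, labelled susceptible. Unstressed control roots were collected on day 28 after sowing, moderate stress roots on day 32 after 4 days of standing water, severe stress roots on day 35 after 7 days, and recovery roots on day 42 after the pots had been drained. Each of the 8 groups had 2 Affymetrix maize arrays, 16 in all, and this number limits the precision. All values are the authors' background-corrected and normalised log2 levels (GCRMA), on which 1 unit is a 2-fold difference. The array floor was 2.01, and 25.6% of all values lay within 0.02 of it. No unstressed roots were collected after day 28, so stress stage and plant age cannot be told apart. The labels call the array pairs biological replicates and the study's methods call them technical, so the p-values speak only of how far the arrays of a pair differed.

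The control arrays of both lines stood apart on genes of the root marker list. The vacuolar membrane aquaporin tip2b, used as a root marker, stood at 4.54 in HKI1105 control and at 9.85 to 12.98 in the other 7 groups, and the glycine-rich protein gene grp3 stood at 2.94 there and at 10.47 to 12.81 elsewhere. The iron transporter gene ys1 was instead highest in HKI1105 control, at 3.74, and fell at all 3 later stages of that line (-1.55, -1.13 and -1.45). The nicotianamine synthase gene nas1 set V-372 control apart, since 2 of its probe sets stood at 8.74 and 8.30 there and within 1 unit of the floor in the other 7 groups. The remaining gene of the list, zrp4, did not follow tip2b and grp3. Its changes from control at moderate stress, severe stress and then recovery were 0.93, -0.19 (not past the test) and 3.46 in HKI1105. In V-372 they were -2.69, -4.33 and -2.89. Of the whole root list, 5 of 8 probe sets were within 1 unit of the floor in HKI1105 control, against 3 of 8 in V-372 control and 5 or 6 of 8 in the other groups, and the linear sum of the list was 79.4 in HKI1105 control and 2383 to 13742 elsewhere. RNAs added during labelling had a median of 9.78 in HKI1105 control and 6.14 to 7.41 in the other groups. Hybridisation controls were highest there too, with a median of 11.14 against 9.24 to 10.09. The median over all probe sets was lowest there, at 6.96 against 7.08 to 7.17. Leaf and photosynthesis genes were present as well: their summed linear level was 112988 in V-372 severe stress and 3430 to 38897 in the other groups, and 3 to 7 of the 15 leaf probe sets were near the floor in each group. In bulk tissue, fewer cells of a type and less RNA per cell cannot be told apart, and the part of these shifts in the results below was not tested. Results are therefore given both against the control and between stages, where the control arrays are not part of the difference.

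The small heat shock proteins and hsp101 moved by large amounts, and the hsp70 class and HSP60-1 by little. Of the 7 small and hsp101 probe sets, 7 had their highest level in V-372 moderate stress, and 6 of the 6 that rose above the floor in more than 1 group had their lowest level in HKI1105 severe stress. The span from a probe set's highest to its lowest group mean was 3.36 to 7.84 log2 units over these 6 probe sets. Over the 5 hsp70 and HSP60-1 probe sets, whose extremes lay in other groups, it was 0.38 to 1.11. The shares of all probe sets highest in V-372 moderate stress or lowest in HKI1105 severe stress were not computed, so these counts only describe the members. The hsp18c and hsp18f probe sets also come from 1 transcript cluster, and the second hsp18c probe set left the floor only in V-372 moderate stress.

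**Figure D1:**
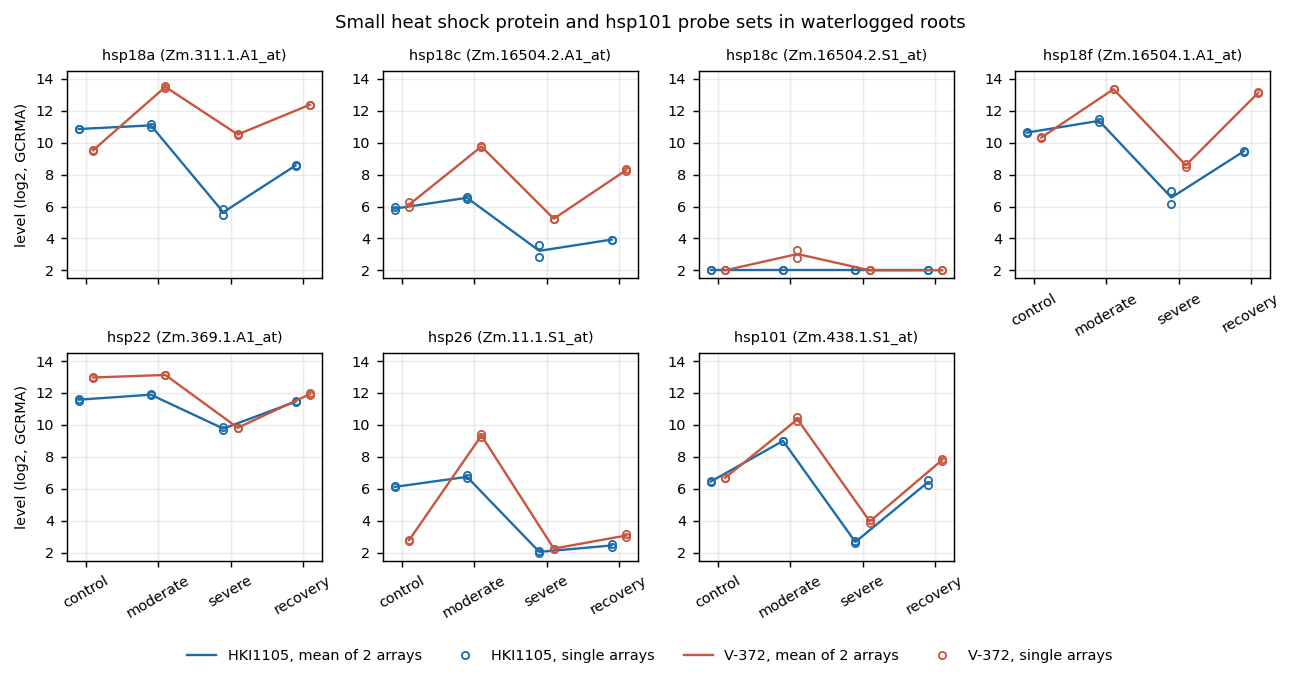
Level of the 7 small heat shock protein and hsp101 probe sets (log2, GCRMA) at control, moderate stress, severe stress and then recovery in HKI1105 (blue) and V-372 (red), with open circles for single arrays and lines through the means of 2 arrays. Both lines dip at severe stress in every panel but that of the second hsp18c probe set, and in 7 of the 7 panels the highest group is V-372 moderate stress.

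In HKI1105, hsp18a, a cytosolic small heat shock protein, had 10.85 and 10.85 in the control arrays, 10.97 and 11.18 at moderate stress, 5.84 and 5.44 at severe stress, and 8.62 and 8.52 at recovery. In V-372 hsp18a (gene symbol LOC542293 in the annotation) had 9.49 and 9.53 in the control, 13.53 and 13.44 at moderate stress, 10.54 and 10.47 at severe stress, and 12.38 and 12.37 at recovery. The arrays of the 2 lines did not overlap at any stage, with HKI1105 the higher line in the control and the lower line at the 3 later stages. Ordered by level, the groups ran V-372 moderate stress, V-372 recovery, HKI1105 moderate stress, HKI1105 control, V-372 severe stress, V-372 control, HKI1105 recovery and HKI1105 severe stress, and of the neighbours in this order only HKI1105 moderate stress and HKI1105 control did not pass the test (0.23, limma, adjusted p = 0.13).

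In HKI1105, hsp101 (LOC541780) had 6.41 and 6.50 in the control, 8.99 and 9.02 at moderate stress, 2.63 and 2.72 at severe stress, and 6.58 and 6.24 at recovery. In V-372 it had 6.69 and 6.69 in the control, 10.48 and 10.23 at moderate stress, 4.05 and 3.89 at severe stress, and 7.74 and 7.89 at recovery. In both lines it was highest at moderate stress and lowest at severe stress, where HKI1105 was within 1 unit of the floor. V-372 control, HKI1105 control and HKI1105 recovery were neighbours in the order and did not pass the test (differences of 0.24 and 0.05, limma, adjusted p = 0.14 and 0.97).

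The plastid small heat shock protein hsp26 (LOC542576) had 6.16 and 6.09 in HKI1105 control, 6.85 and 6.66 at moderate stress, 2.11 and 2.01 at severe stress, and 2.37 and 2.55 at recovery. In V-372 it had 2.82 and 2.77 in the control, 9.46 and 9.22 at moderate stress, 2.27 and 2.27 at severe stress, and 3.01 and 3.16 at recovery. It was thus well above the floor in both moderate stress groups and in HKI1105 control, and within about 1 unit of the floor in the other groups, so its smaller differences there rest on values near background. Among the lowest 3 groups, HKI1105 recovery did not pass the test against V-372 severe stress, nor V-372 severe stress against HKI1105 severe stress (0.19 and 0.21, limma, adjusted p = 0.15 and 0.12), but HKI1105 recovery was 0.40 above HKI1105 severe stress (adjusted p = 0.0137).

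The cytosolic small heat shock protein hsp18f (LOC542723) had 10.60 and 10.65 in HKI1105 control, 11.26 and 11.46 at moderate stress, 6.99 and 6.14 at severe stress, and 9.40 and 9.50 at recovery. In V-372 it had 10.33 and 10.29 in the control, 13.36 and 13.33 at moderate stress, 8.49 and 8.68 at severe stress, and 13.08 and 13.15 at recovery. The controls of the 2 lines lay next to each other (0.31, limma, adjusted p = 0.28), and recovery in V-372 lay next to its moderate stress level (0.22, adjusted p = 0.54).

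For hsp18c (LOC100037778), the main probe set had 5.97 and 5.77 in HKI1105 control, 6.61 and 6.48 at moderate stress, 2.84 and 3.62 at severe stress, and 3.93 and 3.94 at recovery. In V-372 it had 5.97 and 6.26 in the control, 9.79 and 9.72 at moderate stress, 5.24 and 5.23 at severe stress, and 8.35 and 8.20 at recovery. The control arrays of the 2 lines overlapped, and the 2 lines were apart at every later stage. The second hsp18c probe set was at the floor in 14 of the 16 arrays and left it only in V-372 moderate stress, at 2.78 and 3.28. The hsp18c and hsp18f probe sets come from 1 transcript cluster of the array design, so they may share signal and are not independent measurements.

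The mitochondrial small heat shock protein hsp22 (LOC542602) had another profile. In HKI1105 it had 11.52 and 11.64 in the control, 11.86 and 11.93 at moderate stress, 9.69 and 9.85 at severe stress, and 11.47 and 11.44 at recovery. In V-372 it had 13.01 and 12.93 in the control, 13.12 and 13.14 at moderate stress, 9.82 and 9.82 at severe stress, and 11.99 and 11.88 at recovery. In V-372 its moderate stress level was 0.16 above the control, which did not pass the test, and its recovery level was 1.04 below the control. Like hsp18a and hsp18f, it was well above the floor in unstressed roots. At severe stress it fell to levels that overlapped between the lines.

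The hsp70 class and HSP60-1 were bright in every group, between 11.65 and 13.87 over all 16 arrays and 5 probe sets. The chaperone gene hsp70-4 had group means of 12.70, 12.88, 12.90 and 12.96 at control, moderate stress, severe stress and then recovery in HKI1105. In V-372 they were 12.95, 13.04, 12.80 and 13.08. No pair of neighbours in its order passed the test, but some groups further apart did. In HKI1105 it was called 0.18, 0.20 and 0.26 above its control at the 3 later stages. These calls were not kept with quantile normalization or median centring. In V-372 it was 0.24 lower at severe than at moderate stress and 0.28 higher at recovery than at severe stress. The 3 hsp70-5 probe sets, which may pick up related transcripts, spanned 0.71 to 0.89 log2 units over the groups, with V-372 recovery the highest group in each. The chaperonin HSP60-1 (LOC542736) had 12.33, 12.15, 12.13 and 11.94 in HKI1105, against 12.80, 12.22, 12.44 and 11.69 in V-372, so its lowest level in both lines was at recovery.

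**Figure D2:**
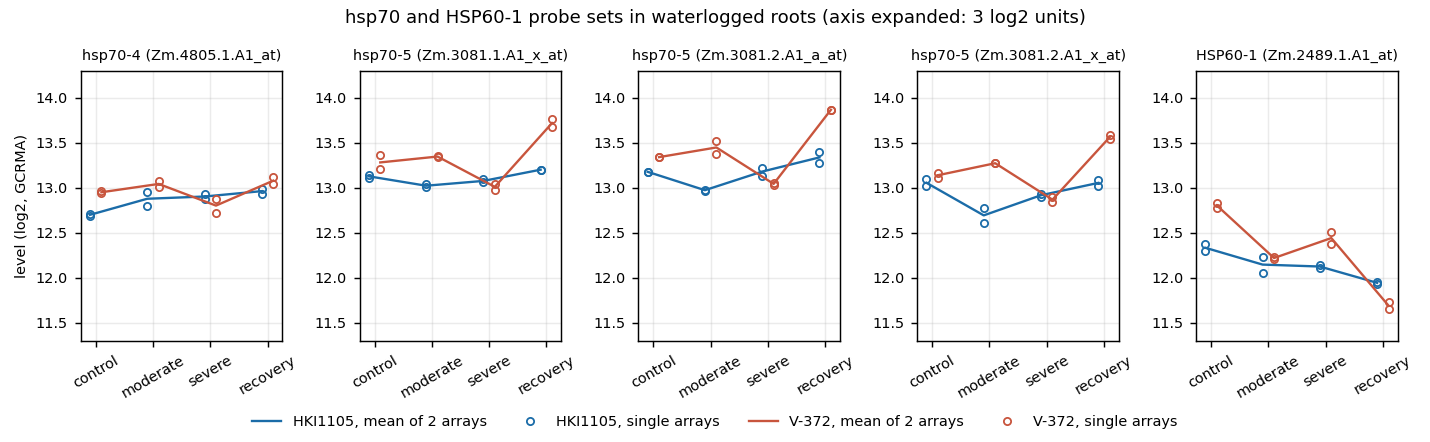
Level of the 4 hsp70 class probe sets and HSP60-1 (log2, GCRMA; the axis covers a narrower range than for the small heat shock proteins) at the 4 stages in HKI1105 (blue) and V-372 (red), with open circles for single arrays and lines through the means of 2 arrays. The values stay between 11.65 and 13.87, hsp70-5 peaks in V-372 recovery, and HSP60-1 is lowest at recovery in both lines.

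The first comparison asked what 4 days of waterlogging did in each line. In HKI1105, hsp101 rose by 2.55 ± 0.12 log2 units (SE, n = 2 arrays per group), which is 5.85-fold (limma, adjusted p = 1.8e-07), and was the largest change among the members. The small heat shock proteins moved little: hsp18f rose by 0.74, hsp18c by 0.68, hsp26 by 0.63 and hsp22 by 0.31, while hsp18a changed by 0.23 and did not pass the test. Of the 12 probe sets 6 rose and 3 fell, where 26.5% of all probe sets on the array rose and 27.5% fell in this comparison. With quantile normalization the calls of hsp22 and hsp18c were lost, at 0.16 and 0.44, and with each line fitted alone those of hsp18c and hsp18f. The split was 3 up and 4 down with quantile normalization and 5 up and 4 down with median centring. Without HKI1105 control replicate 2, 5 members were called. The hsp18c call was lost without control replicate 2 or either moderate stress array, and the hsp18f call without either control array or moderate stress replicate 2.

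In V-372 the same stage brought large rises. The plastid gene hsp26 rose by 6.55 ± 0.10 (SE, n = 2), or at least 93.6-fold (limma, adjusted p = 5.31e-10), a lower bound, since its control level was within 1 unit of the floor. The cytosolic genes followed, with hsp18a up by 3.97 ± 0.11, hsp18c by 3.64 ± 0.21 and hsp18f by 3.03 ± 0.22, and hsp101 rose by 3.66 ± 0.12, or 12.7-fold. The mitochondrial hsp22 changed by 0.16 and did not pass the test (adjusted p = 0.095). Of the 12 probe sets 6 rose and 1, HSP60-1, fell, against 14.0% and 19.1% of all probe sets. The median change of the 6 small heat shock protein probe sets was 0.47 in HKI1105 and 3.33 in V-372, beside a median of 0 over all probe sets in both lines.

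**Figure D3:**
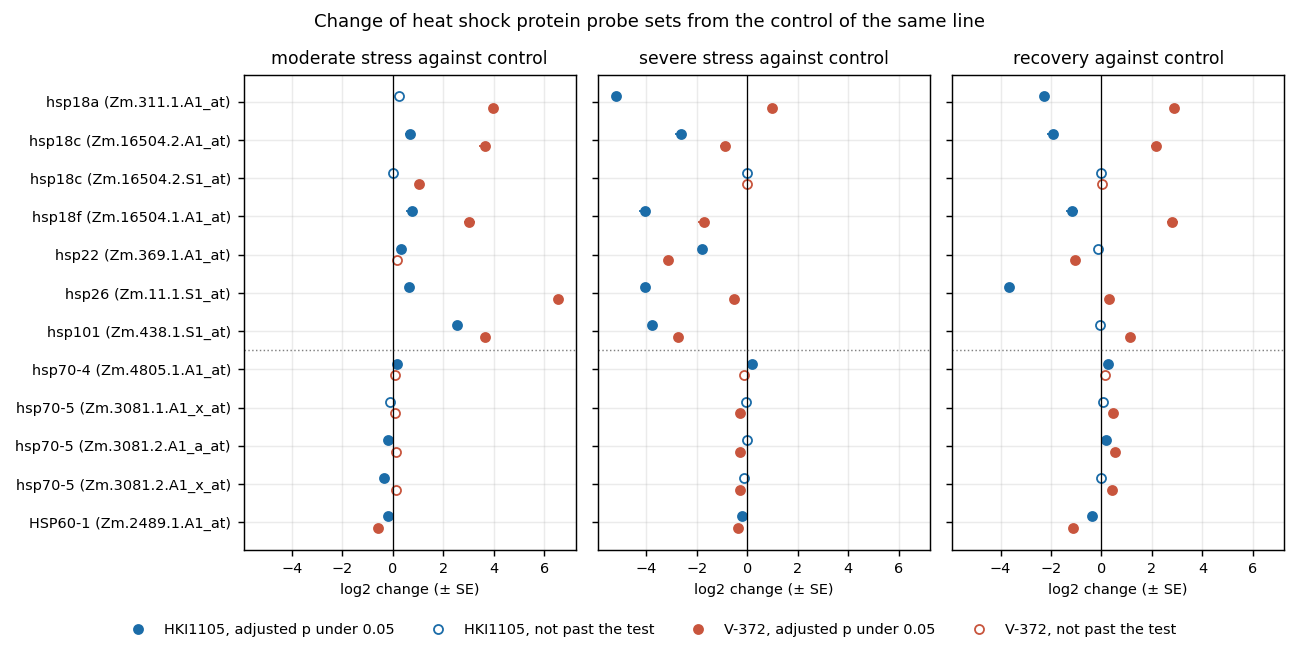
Change of the 12 probe sets from the control of the same line (log2, ± SE, n = 2 arrays per group) at moderate stress, then severe stress, then recovery in HKI1105 (blue) and V-372 (red), with filled points where limma's adjusted p was under 0.05. Above the dotted line, small heat shock protein and hsp101 changes reach 6.55 and -5.21, and below it the hsp70 and HSP60-1 changes stay between -1.11 and 0.53.

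At severe stress the direction was reversed for most of these genes. In HKI1105, hsp18a fell by 5.21 ± 0.11 log2 units, or 36.9-fold (limma, adjusted p = 2.38e-09), hsp18f and hsp26 fell by 4.06 each, and the changes were -3.78 for hsp101, -2.64 for hsp18c and -1.81 for hsp22. In V-372, hsp22 fell most, by 3.15 ± 0.06, or 8.85-fold (adjusted p = 7.15e-10), followed by hsp101 at -2.72, hsp18f at -1.73, hsp18c at -0.88 and hsp26 at -0.52. The falls of hsp26 in both lines and of hsp101 in HKI1105 end near the floor, which limits their size. For hsp18c, 1 HKI1105 severe stress array was within 1 unit of the floor. The exception was hsp18a in V-372, which was still 0.99 ± 0.11 above its control. In HKI1105 1 member rose and 7 fell, against 27.1% and 23.2% of all probe sets, and with quantile normalization or median centring the split was 0 up and 10 down. In V-372 1 rose and 9 fell, against 17.5% and 31.7%, and the hsp18c call was lost without V-372 control replicate 2, at -0.73.

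The comparison of severe with moderate stress used no control arrays and gave falls in both lines. In HKI1105, hsp101 fell by 6.32 log2 units, and the changes were -5.43 for hsp18a, -4.80 for hsp18f, -4.70 for hsp26, -3.32 for hsp18c and -2.12 for hsp22. In V-372, hsp26 fell by 7.07, and the changes were -6.39 for hsp101, -4.76 for hsp18f, -4.52 for hsp18c, -3.31 for hsp22 and -2.98 for hsp18a (limma, adjusted p between 1.07e-10 and 2.09e-07 for these 6). The disaggregase hsp101 was thus at least 80.1-fold lower at severe than at moderate stress in HKI1105, where it ended within 1 unit of the floor, and 83.6-fold lower in V-372. In HKI1105 2 members rose and 6 fell, against 17.4% and 13.8% of all probe sets, and in V-372 1 rose and 11 fell, against 17.7% and 28.1%. Leaf gene levels moved in V-372 between these stages, with a summed linear level of 112988 at severe stress and 21273 at moderate stress, and moved less in HKI1105, with 32037 and 38897.

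After drainage the small heat shock proteins and hsp101 rose again. Against severe stress, hsp101 rose 3.73 in HKI1105 and 3.85 in V-372, while hsp18f rose 2.89 in HKI1105 and 4.53 in V-372. The HKI1105 rise of hsp101 starts near the floor, which limits its size. The cytosolic hsp18a had rises of 2.93 in HKI1105 and 1.87 in V-372, hsp22 had 1.68 in HKI1105 against 2.11 in V-372, and hsp18c had 0.70 against 3.04. Recovery was smallest for hsp26, which gained 0.40 in HKI1105 and 0.81 in V-372 and stayed near the floor in both. In HKI1105 7 members rose and 0 fell by limma's adjusted p, against 16.2% and 14.7% of all probe sets, the split was 8 up and 1 down with quantile normalization, and without HKI1105 recovery replicate 2 the count of members called was 4. In V-372 10 rose and 1 fell, against 28.8% and 20.6%.

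Set against the controls, recovery differed between the lines. In V-372, hsp18a was 2.86 above its control, hsp18f 2.81, hsp18c 2.16 and hsp101 1.12, whereas hsp22 was 1.04 below it (SE 0.06, limma, adjusted p = 1.43e-06). In HKI1105, hsp26 was 3.66 below its control, hsp18a 2.28, hsp18c 1.94 and hsp18f 1.17, while hsp101 and hsp22 did not pass the test (-0.05 and -0.13, adjusted p = 0.97 and 0.14). For hsp22 this turned on the scaling, as it was called lower with quantile normalization (-0.32) and with median centring (-0.28). All 3 hsp70-5 probe sets rose in V-372, by 0.42 to 0.53, and HSP60-1 fell there by 1.11 ± 0.06, or 2.16-fold. In HKI1105 2 members rose and 5 fell, against 26.8% and 21.2% of all probe sets, with 0 up and 7 down under quantile normalization or median centring. In V-372 8 rose and 2 fell, against 23.1% and 23.4%, and the rise of hsp26 by 0.29, near the floor, was lost with quantile normalization, with each line fitted alone, and without any 1 of 9 arrays (both HKI1105 control, both HKI1105 severe stress, both V-372 control, both V-372 severe stress arrays or V-372 recovery replicate 2).

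The next comparison tested the difference of the response itself, the change from control in HKI1105 minus that in V-372. For hsp18a the difference was -3.74 at moderate stress, -6.20 at severe stress and -5.14 at recovery (SE 0.16, limma, adjusted p = 1.86e-07, 5.62e-09 and 2.77e-08). For hsp26 it was -5.92, -3.54 and -3.95 at the same stages. V-372 control was near the floor for hsp26 and could hardly fall, so the values at severe stress and recovery mostly restate the control difference of 3.33. The difference was for hsp18c -2.96, -1.76 and -4.10, and for hsp18f -2.29, -2.33 and -3.97. For hsp101 it was -1.11, -1.05 and -1.17, and the value at severe stress is limited by the floor, which HKI1105 was near. The mitochondrial hsp22 went the other way, with 0.15 at moderate stress, which did not pass the test, then 1.34 and 0.91. Over the 12 probe sets, 1 was higher and 8 lower at moderate stress against 25.1% and 23.6% of all probe sets, 4 and 5 at severe stress against 32.4% and 22.6% (1 and 5 with either other scaling), and 2 and 8 at recovery against 24.8% and 23.1%.

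These differences rest partly on the controls of both lines, whose levels were not alike. Using severe minus moderate stress in place of a change from control, hsp18a still fell further in HKI1105, by -2.45 ± 0.16 (limma, adjusted p = 2.81e-06), whereas hsp22 fell further in V-372 (1.18 ± 0.09), as did hsp18c (1.20 ± 0.30), for which 1 HKI1105 severe stress array was within 1 unit of the floor. Both lines ended near the floor for hsp26, so its falls are not compared. For hsp18f and hsp101 the difference between the falls did not pass the test, at -0.04 ± 0.31 and 0.06 ± 0.17 (adjusted p = 1 for both), and the floor limits the hsp101 fall in HKI1105. For recovery minus severe stress the HKI1105 rise was smaller for hsp18c (-2.34), hsp18f (-1.64) and hsp22 (-0.43), and larger for hsp18a (1.06). The difference for hsp101 did not pass the test (-0.12 ± 0.17, limma, adjusted p = 0.77), and its HKI1105 rise starts near the floor. Near the floor at both stages, hsp26 is again not compared.

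**Figure D4:**
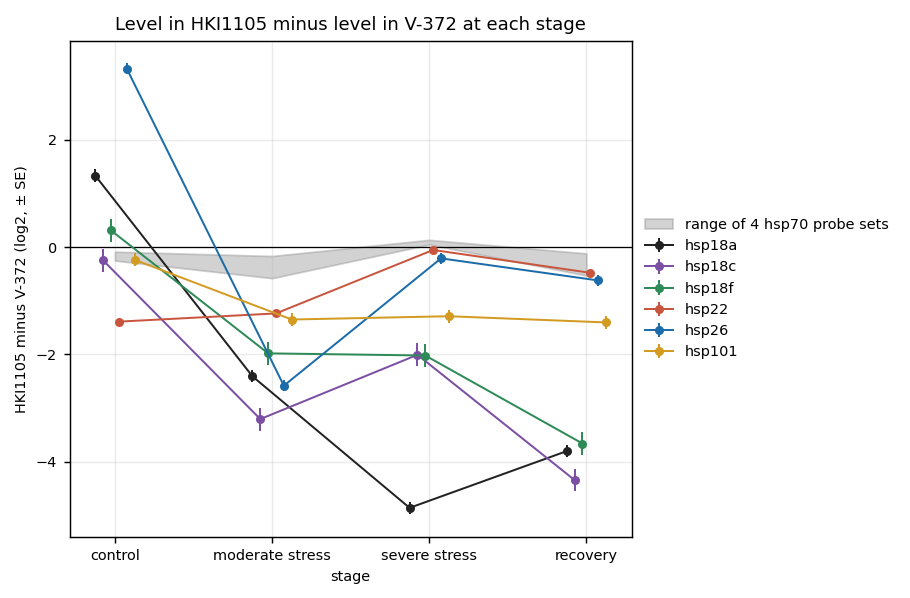
Level in HKI1105 minus level in V-372 (log2, ± SE, n = 2 arrays per group) at each stage for hsp18a, hsp18c (main probe set), hsp18f, hsp22, hsp26 and hsp101, with the range of the 4 hsp70 class probe sets in grey. Points of hsp18a, hsp26 and hsp18f lie above 0 in the control, that of hsp18f by 0.31, which did not pass the test. Every gene is below 0 at moderate stress and recovery, and hsp22 and hsp26 come within 0.21 of 0 at severe stress.

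Compared directly at each stage, fewer members differed between the lines in the control and at severe stress than at moderate stress and recovery. In the control, hsp26 was 3.33 log2 units higher in HKI1105 than in V-372 and hsp18a 1.33 higher, while hsp22 was 1.39 lower. At moderate stress HKI1105 was the lower line for 7 of the 7 small and hsp101 probe sets, with differences of -1.02 to -3.21 (limma, adjusted p between 1.31e-07 and 1.58e-04). At severe stress hsp18a was 29.1-fold lower in HKI1105 (-4.86 ± 0.11), hsp18f and hsp18c were lower by 2.02 and 2.01, and hsp101 by 1.29. For hsp101 the HKI1105 level there was near the floor, which limits the difference. At recovery hsp18c was lower by 4.34, hsp18a by 3.80 and hsp18f by 3.66, and hsp101 by 1.40. The counts of members higher and lower in HKI1105 were 2 and 5 in the control, against 24.3% and 29.9% of all probe sets (3 and 2 with either other scaling), and 0 and 10 at moderate stress, against 16.8% and 22.6%. They were 0 and 5 at severe stress, against 27.2% and 21.5% (1 and 5 with median centring), and 1 and 9 at recovery, against 18.2% and 21.4%. The controls aside, then, no small or hsp101 probe set was called higher in HKI1105 than in V-372.

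Patterns over the groups were compared next. Over the 8 group means, the 15 correlations among the 6 small and hsp101 probe sets above the floor ranged between 0.59 and 0.93, and the 30 between them and the hsp70 and HSP60-1 probe sets between -0.25 and 0.67. The points are group means of the same arrays, so these are descriptions. Among 913 other named probe sets that spanned at least 1 log2 unit, the alternative oxidase gene aox1, which encodes the cyanide-insensitive terminal oxidase of plant mitochondria, was nearest to hsp18c (r = 0.96), hsp18a (0.91) and hsp18f (0.90). The level of aox1 was 8.84, 7.92, 4.96 and 5.98 at control, moderate stress, severe stress and then recovery in HKI1105 and 9.10, 11.36, 7.49 and 10.05 in V-372. Next for hsp18a was TCTP (0.87), the translationally controlled tumor protein homolog, then gla3 (0.76), and the same pair stood next for hsp18c (gla3 at 0.89, TCTP at 0.86). For hsp18f the next were TCTP (0.81) and ciszog1 (0.80), a cis-zeatin O-glucosyltransferase. These next genes have limits that aox1 does not. The TCTP arrays of HKI1105 moderate stress stood at 7.64 and 9.54, further apart than its whole span of group means (1.45), gla3 was within 1 unit of the floor in 6 of 8 groups with 2.61 and 4.17 in the V-372 recovery arrays, and ciszog1 was within 1 unit of the floor in 5 of 8.

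The remaining members had other nearest patterns. For hsp101 they were ciszog1 (0.87), aox1 (0.78) and the expansin expA3 (0.74), and for hsp26 the cysteine protease gene mir1 (0.86), gsh1 (0.86) and ciszog1 (0.85). Of these, expA3 was within 1 unit of the floor in 5 of 8 groups and mir1 in 6 of 8. For hsp22 they were ibp2 (0.92), yptm3 (0.87) and pal3 (0.85), the last a phenylalanine ammonia-lyase. For HSP60-1 they were the calnexin CNX (0.89), the protein disulfide isomerase pdi5 (0.86) and the centromeric histone cenH3 (0.86).

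Other chaperone genes and 2 genes of heat shock factor control changed by -2.11 to 1.96 over the 6 comparisons with control. The list held 28 probe sets of 18 genes, mainly protein disulfide isomerases, with the calreticulin crt2, the calnexin CNX, the BiP genes bip1 and bip2 and the chaperonin CPNB. It also held hsfb, a heat stress transcription factor, and hsbp1, a heat shock factor binding protein, which are not chaperones. In HKI1105 17 rose and 6 fell at moderate stress (median change 0.42), 15 and 4 at severe stress (0.55), and 15 and 4 at recovery (0.40). In V-372 1 rose and 13 fell at moderate stress (median -0.27), 0 and 21 at severe stress (-0.56), and 0 and 20 at recovery (-0.53), by limma's adjusted p. The shares of all probe sets called in each comparison are those given above for the members. These counts rest on controls that differed, since 22 of the 28 were lower and 1 higher in HKI1105 control than in V-372 control. Between severe and moderate stress, with no control arrays in the difference, HKI1105 had 10 higher and 2 lower (median 0.11), while V-372 had 0 higher and 15 lower (median -0.32). From severe stress to recovery, HKI1105 had 1 higher and 1 lower, while V-372 had 6 higher and 10 lower.

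Among these genes pdi, a protein disulfide isomerase, rose most, by 1.96 at severe stress in HKI1105, where pdi12 rose by 1.64, and pdi7 rose by 1.62 at recovery in the same line. The falls were led by pdi5, by 2.11, and by the calreticulin crt2, by 1.90, both in V-372 recovery. The third was the transcription factor gene hsfb, which fell by 1.79 ± 0.17 in HKI1105 moderate stress and rose by 0.58 in V-372 moderate stress. The level of pdi was 12.16 in HKI1105 severe stress, 10.20 in HKI1105 control and 11.85 to 12.18 in the 4 V-372 groups, so its rise rests on the HKI1105 control arrays.

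**Figure D5:**
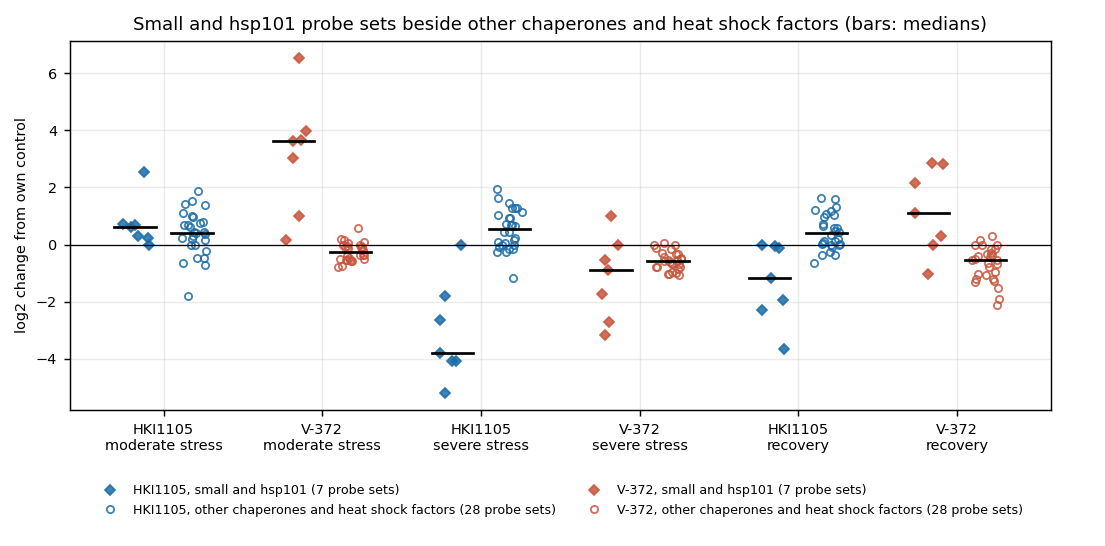
Change from the control of the same line (log2) for the 7 small heat shock protein and hsp101 probe sets (diamonds) and the 28 probe sets of other chaperones and heat shock factor genes (circles) at 3 stages in HKI1105 (blue) and V-372 (red), with black bars for the medians. The circles lie between -2.11 and 1.96, mostly above 0 in HKI1105 and below 0 in V-372, while the small and hsp101 probe sets reach 6.55 and -5.21.

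The study's own gene table names 7 further probe sets as carrying an Hsp20 domain, the domain of small heat shock proteins. They were listed for their change on these arrays, so their direction is not independent evidence. Of the 7, 6 were lower at severe than at moderate stress in HKI1105 and 6 in V-372, against 13.8% and 28.1% of all probe sets. At moderate stress against control they were 2 higher and 5 lower in HKI1105 (median -1.52), against 26.5% and 27.5% of all probe sets. The 6 small probe sets above were 4 higher and 0 lower there. In V-372 the 7 were 5 higher and 2 lower (median 1.22), against 14.0% and 19.1%. Between the controls, 6 of the 7 were higher and 1 lower in HKI1105 than in V-372, against 24.3% and 29.9%. The furthest moving of them, chosen after its values were seen, had 9.91, 10.45, 2.98 and 5.49 at control, moderate stress, severe stress and then recovery in HKI1105 and 8.06, 13.38, 3.39 and 11.02 in V-372. One had another course, with 5.35, 9.05, 7.90 and 7.89 in HKI1105, against 8.58, 8.04, 7.90 and 5.92 in V-372.

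The low oxygen response, which shifts root metabolism to fermentation, served as a check of the treatment. Of its 25 probe sets (15 genes), 11 rose and 4 fell in HKI1105 at moderate stress, against 26.5% and 27.5% of all probe sets. The counts there were 13 and 4 at severe stress, against 27.1% and 23.2%, and 12 and 4 at recovery, against 26.8% and 21.2%. In V-372 15 rose and 2 fell at moderate stress, against 14.0% and 19.1%, 5 and 12 at severe stress, against 17.5% and 31.7%, and 7 and 7 at recovery, against 23.1% and 23.4%, so that the rises at severe stress and both recovery counts lay near the shares over the array. At severe against moderate stress, HKI1105 had 4 higher and 6 lower, against 17.4% and 13.8% of all probe sets, so its rises lay near the share. V-372 had 1 higher and 18 lower there, against 17.7% and 28.1%. Alcohol dehydrogenase adh1 changed by 1.79, 1.72 and 0.94 at these stages in HKI1105, against 0.82, -0.23 and -0.03 in V-372. For pyruvate decarboxylase, pdc3, the changes were 2.04, 2.48 and 1.49 in HKI1105, against 0.18, -1.37 and -1.12 in V-372. The largest change of the list was that of the haemoglobin gene Hb2, which fell by 8.05 at moderate stress in HKI1105. Whether these changes and those of the heat shock protein genes are linked was not tested.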

How the data were processed

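RNA of root tissue was hybridised to 16 single-colour Affymetrix maize arrays, 2 for each of 8 groups of line and stage. The authors made the deposited values from the scanner files with GCRMA in R, which corrects background, normalises and summarises probes, and the deposited table holds log2 levels per probe set (median 7.10). No further normalization was applied. Groups came from the sample labels. All 17734 probe sets were fitted with limma 3.58.1 in R 4.3.3, with one mean per group and the spread shared over the 8 groups (8 residual degrees of freedom), and p-values were adjusted by Benjamini-Hochberg over all probe sets of a comparison. A change was called at an adjusted p under 0.05. In simulated data for V-372 moderate stress against control over 17734 probe sets, 187 of 200 changed probe sets were found and 8 unchanged ones called. The simulated noise was independent and normal, with no floor, and few probe sets were changed. It therefore checks that the fit runs correctly and not how often calls on the real arrays are right.

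Gene names came from the platform annotation and RefSeq, where 8 of the 12 members were matched by gene ID and 4 were named by symbol alone. HSP60-1 was kept apart from the hsp70 class because it is a chaperonin. The members and lists were chosen with earlier results of these data known. Every member was named, of other chaperones and heat shock factor genes the 3 largest rises and 3 largest falls, of low oxygen genes adh1, pdc3 and the largest change, and the 3 nearest patterns per member. Genome positions, sequences and promoter motifs were not analysed here. The alternatives were quantile normalization, median centring, a filter on low values, each line alone, a replicate block, a trended robust variance, the methods' thresholds (p up to 0.001 and at least 5-fold) and leaving out each array. The labels and the study's text differ in the days of sealing and draining the pots. The text has the seal removed on day 42, the day of the recovery roots, and the labels place draining earlier. How long the pots had been drained before recovery sampling is therefore not settled. Deviations of same-numbered arrays correlated at -0.18 to 0.23 over 28 pairs of groups (median -0.00077).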

Additional observations from a re-analysis of the deposited data

Results flagged for a closer look

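Values are given here because the response from control differed between the lines by limma's test of the difference (HKI1105 minus V-372, log2, n = 2 arrays per group). For hsp18a they were -3.74, -6.20 and -5.14 at moderate stress, then severe stress, then recovery, and for hsp26 -5.92, -3.54 and -3.95 (V-372 control near the floor). For hsp101 they were -1.11, -1.05 and -1.17 (HKI1105 severe stress near the floor). For hsp18f they were -2.29, -2.33 and -3.97, and for hsp18c -2.96, -1.76 and -4.10 by the main probe set and -1.02 at moderate stress by the second. For hsp22 they were 1.34 at severe stress and 0.91 at recovery.

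The hsp70 class and HSP60-1 had smaller differences. They were 0.35 for hsp70-4 at severe stress, a call lost with quantile normalization (0.053) and median centring (0.20). For hsp70-5 they were 0.22 at severe stress and -0.36 at recovery by its first probe set, -0.31, 0.30 and -0.37 at the 3 stages by its second, and -0.50 at moderate stress and -0.42 at recovery by the last one. For HSP60-1 they were 0.40 at moderate stress and 0.72 at recovery. With quantile normalization the calls at severe stress were lost for the first hsp70-5 probe set (-0.070) and the second (0.022), as was the HSP60-1 call at moderate stress (0.15). With median centring both hsp70-5 calls were lost too (0.067 and 0.15). The hsp70-5 probe sets are numbered as in the plot of hsp70 levels. The HKI1105 control arrays, which stood apart on the root markers tip2b and grp3, enter all of these values.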

How the results depend on the processing

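With the methods' thresholds (p up to 0.001 and at least 5-fold), the members called at moderate stress, then severe stress, then recovery against control numbered 1, 5 and 1 for HKI1105. For V-372 they numbered 5, 2 and 2. They numbered 3, 3 and 4 for the difference of the response, 5 and 6 for severe against moderate stress in HKI1105 and V-372, 3 and 3 for recovery against severe stress, and 1, 3, 1 and 3 for HKI1105 against V-372 at control, moderate stress, severe stress and recovery. The shares of all probe sets at these thresholds were not computed, so the counts show only how many member calls remained. Leaving out single arrays, with calls at an adjusted p under 0.05, gave 5 to 9 members called at HKI1105 moderate stress and 4 to 8 for HKI1105 recovery against severe stress.

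Median centring shifted all HKI1105 changes from control by -0.15 to -0.18 log2 units. Small hsp70 changes turned sign: with quantile normalization hsp70-4 stood at -0.086 at moderate stress and -0.067 at severe stress in HKI1105, the second hsp70-5 probe set at -0.24 at severe stress and -0.022 at recovery, and the first hsp70-5 probe set at -0.070 for the difference of the response at severe stress. With median centring the second hsp70-5 probe set stood at -0.17 at HKI1105 severe stress. A trended robust variance kept 108 of 108 values on their side of the threshold, and the filter on low values, which kept 11 of the 12 members, did so for 96 of 99. Quantile normalization kept 90 of 108, median centring 92 of 108, and each line fitted alone 61 of 72. With the replicate number as a block, 107 of 108 were kept and hsp70-4 at HKI1105 moderate stress was lost, and the members called there numbered 8. The array numbers were not treated as pairs in the main fit. Of the 28 correlations between same-numbered arrays 3 exceeded 0.1, and what true pairs would give was not computed. With 2 arrays per group and a floor at 2.01, small changes of hsp26 and of the second hsp18c probe set cannot be resolved.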
